A study of Homo sapiens with 2 samples.

Results

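The 36 genes described here encode proteins of the nuclear pore complex and of the transport cycle that runs through it. They were listed by name, a rule that uses no measured value, although earlier results of these data were known when the list was made: 28 nucleoporins and 8 soluble transport factors. Each symbol was matched to its row through the gene annotation of GRCh37, and all 36 were found among 57736 gene rows. The genes were read in untreated HEK293T cells, a human embryonic kidney line that carries the SV40 large T antigen, labelled wild type and kidney. Poly(A) RNA was sequenced in 2 replicates of this 1 group, so no condition or control was compared. The replicates are described as replicas of 1 line, and the labels do not say if they were separate cultures, so every spread and p-value below covers the difference between these libraries only, which may be technical.

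The nuclear pore complex is a ring-shaped channel that spans both membranes of the nuclear envelope. Its Y complex and inner ring form the scaffold, membrane nucleoporins anchor it, and nucleoporins rich in phenylalanine and glycine (FG) fill the channel and bind transport receptors. Importin alpha recognises the nuclear localisation signal of a cargo and binds importin beta, which carries it through the pore. RAN, a small GTPase, releases import cargo inside the nucleus and loads export receptors, and CSE1L returns importin alpha to the cytoplasm.

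The libraries held 10593491 and 10104118 estimated counts, so a count of 0 would allow up to 0.283 and 0.297 CPM (counts scaled to the library total). The 36 genes were read deeply. Their counts in 1 replicate ran from 219 to 9800, for which counting alone gives an error of 6.76% and 1.01%. The markers listed for the labelled tissue were mostly absent: 1 of 8 kidney segment genes was detected (LRP2, 9.12 ± 1.19 TPM, SD, n = 2), and UMOD, AQP2, SLC34A1 and CDH16 had an estimated count of 0 in both replicates. Of the genes of an embryonic, epithelial or mesenchymal state, all 3 with a row were detected: PAX2 at 3.41, VIM at 338 and KRT18 at 46.2 TPM on average. Of the markers of other cells, 1 of 3 with a row was detected (COL1A1, 8.89 TPM), while PTPRC had 1 count in each replicate and ALB none. Whether this makeup bears on the levels below was not tested. In bulk RNA, less of a transcript in every cell and fewer cells with it cannot be told apart.

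Several of these genes share sequence with other genes, so reads from the shared parts cannot be assigned with certainty. Whether this bears on the difference between the replicates was not tested. A read of 50 bases that fits several genes was split among them by the authors' counting, so the members with near-identical copies are shown before their values. POM121 anchors the pore in the membrane, and its neighbour on chromosome 7, POM121C, encodes a closely related protein. A window of 50 bases in exon 2 of POM121, chr7:72396897-72396946 on the plus strand of GRCh37, is identical in POM121C, chr7:75070779-75070828 on the minus strand. A read inside it cannot be assigned to either gene. A nearby window of the same exon, chr7:72396805-72396854, differs from chr7:75070871-75070920 of POM121C at the positions in capitals, A15G and A36C (POM121 base, position counted from 1 at the 5′ end, POM121C base).
POM121 and POM121C, identical: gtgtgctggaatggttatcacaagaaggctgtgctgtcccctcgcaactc
POM121, different: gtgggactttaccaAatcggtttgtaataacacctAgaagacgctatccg
POM121C, different: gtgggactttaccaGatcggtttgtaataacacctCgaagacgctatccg

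RANBP2, the giant nucleoporin of the cytoplasmic filaments, has 7 annotated copies of the RGPD family on the same chromosome. A window in its exon 2, chr2:109345588-109345637 on the plus strand, is identical in RGPD6, chr2:111327252-111327301 on the minus strand. In exon 1, chr2:109336084-109336133 differs from chr2:111334531-111334580 of RGPD6 by A13G, A26T, C30T, T31C and C32T, counted in the same way with the RANBP2 base given before the position.
RANBP2 and RGPD6, identical: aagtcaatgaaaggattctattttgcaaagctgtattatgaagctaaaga
RANBP2, different: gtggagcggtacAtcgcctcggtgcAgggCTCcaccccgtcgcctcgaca
RGPD6, different: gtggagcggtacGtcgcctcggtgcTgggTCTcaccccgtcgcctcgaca

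AHCTF1, also called ELYS, recruits the Y complex to chromatin. Its processed pseudogene AHCTF1P1 lies on another chromosome. The window chr1:247081623-247081672 of AHCTF1, on the minus strand, is identical in the pseudogene at chr2:162364140-162364189, also on the minus strand. The window chr1:247070988-247071037 differs from chr2:162363561-162363610 by A33G and C40G, with the AHCTF1 base before the position.
AHCTF1 and AHCTF1P1, identical: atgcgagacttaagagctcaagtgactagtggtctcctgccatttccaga
AHCTF1, different: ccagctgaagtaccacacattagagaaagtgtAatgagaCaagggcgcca
AHCTF1P1, different: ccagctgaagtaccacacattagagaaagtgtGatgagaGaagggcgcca

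All 36 genes were detected, that is, had a TPM (a transcript level scaled by length and to the same total in every library) of at least 1 in both replicates. Over all protein-coding genes with a row the percentage detected was 63.0. The median of the members' mean TPM was 81.7, against 21.1 for the 12461 detected protein-coding genes, or 6.37 against 4.46 as log2(TPM + 1). This median lay at percentile 86.1 of the detected protein-coding genes. The lowest member, NUP35, was at percentile 60.0 and the highest, RAN, at 99.2, so every member was above the detected protein-coding median. Together the 36 genes held 0.455% of all TPM in replicate 1 and 0.454% in replicate 2, although they are 0.0624% of the gene rows.

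Most members had similar levels. On average 25 of the 36 lay between 50 and 110 TPM, while the highest was 30.7 times the lowest. In the order of mean TPM there were 35 neighbouring pairs, and the replicate ranges of 22 pairs overlapped. The 13 pairs that did not overlap were mainly at the ends of the order. RAN, KPNB1, KPNA2 and CSE1L followed each other without overlap, as did XPO1, TPR, NUP205, SEC13 and NUP98 at the next levels, and KPNA3, NUP37 and NUP35 at the bottom. CSE1L and XPO1 overlapped. In the middle, from NUP98 at 104 to KPNA3 at 46.7 TPM, the order was largely not resolved by these replicates.

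**Figure D1:**
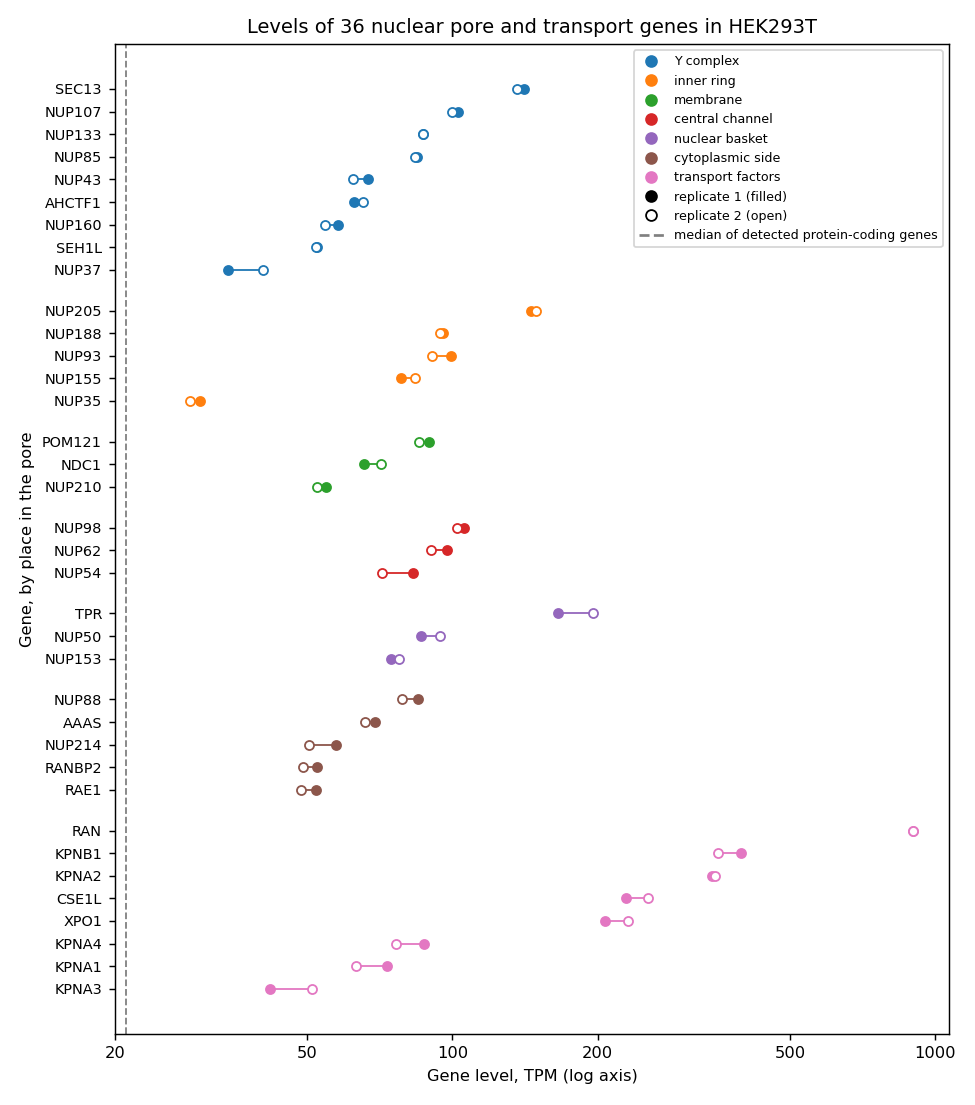
Levels of the 36 genes in TPM on a log axis, grouped by place in the pore. Filled points are replicate 1, open points replicate 2, and the line joins them; the dashed line is the median of detected protein-coding genes at 21.1 TPM. RAN, KPNB1, KPNA2, CSE1L and XPO1 lie above every nucleoporin, and NUP35 is the lowest.

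The Y complex, the outer scaffold, had 9 members here, with a summed level of 689 and 682 TPM in the replicates. Its subunits differed in level. SEC13, which also serves in the COPII coat of secretory vesicles, had 141 and 136 TPM. NUP107, a subunit of the stem of the Y, had 103 and 99.9 TPM. These 2 were above the other subunits in each replicate. NUP133, at the tip of the stem, had 86.9 and 86.8 TPM, and NUP85, which holds SEH1L in an arm of the Y, had 84.6 and 83.9. The small propeller protein NUP43 had 66.9 and 62.3 TPM. AHCTF1 had 62.6 and 65.4 TPM, and its range overlapped that of NUP43. NUP160, in the other arm, had 58.0 and 54.4 TPM. SEH1L, which is shared with the GATOR2 complex of the amino acid sensing pathway, had 52.5 and 52.3 TPM. NUP37, which binds NUP160, was lowest with 34.3 and 40.5 TPM. The mean level of SEC13 was 3.70 times that of NUP37, and the ratio was 4.10 in replicate 1 and 3.37 in replicate 2. SEC13 exceeded SEH1L, its structural relative, by 2.64 ± 0.0514 times (SD, n = 2).

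The inner ring, the scaffold around the channel, had 5 members and a sum of 449 and 446 TPM. NUP205, a large scaffold protein, was highest with 145 and 149 TPM. Its paralog NUP188 had 95.8 and 94.3 TPM, and NUP205 exceeded it by 1.55 ± 0.0433 times. NUP93, which links the ring to the channel nucleoporins, had 99.3 and 90.7 TPM. NUP155, which contacts the membrane, had 78.2 and 83.8 TPM. NUP35 (ENSG00000163002, chr2:183982241-184026408), another membrane-binding subunit, was the lowest of all 36 with 30.0 and 28.6 TPM, from 250 and 219 counts. NUP205 was 5.03 ± 0.257 times NUP35. The range within the inner ring was therefore wider than within the Y complex.

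The 3 membrane nucleoporins had 210 and 209 TPM in sum. POM121 had 89.3 and 85.2 TPM, a value that depends on how reads were split with its copies. NDC1, a conserved nucleoporin that crosses the membrane several times, had 65.6 and 71.2 TPM. NUP210, a large glycoprotein with most of its mass in the lumen of the envelope, had 54.7 and 52.4 TPM. The replicate ranges of the 3 genes did not overlap.

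The central channel nucleoporins carry FG repeats and form the permeability barrier. NUP98, also made from a precursor that yields the scaffold protein NUP96, had 106 and 102 TPM. NUP62 had 97.4 and 90.3 TPM, and its channel partner NUP54 had 82.7 and 71.4. All 3 were lower by TPM in replicate 2. This was the commoner direction: of 10980 detected protein-coding genes with at least 100 summed counts, 4517 were higher there. NUP54 was 0.820 ± 0.0415 times NUP62. NUP58, the third partner in the channel and no member of the list, had 45.8 and 54.7 TPM, below both partners in each replicate.

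The nuclear basket faces the nucleoplasm. TPR (ENSG00000047410, chr1:186280784-186344825), its main filament, was the highest nucleoporin with 165 and 196 TPM. NUP50, which helps to take importin alpha complexes apart, had 86.0 and 94.3 TPM, and NUP153, which anchors the basket, had 74.7 and 77.6. TPR was 2.37 ± 0.217 times NUP153. The 3 basket genes were all higher by TPM in replicate 2, but TPR was nearly equal by CPM (a log2 ratio of 0.0095).

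The 5 genes of the cytoplasmic side had the lowest group median, 57.3 and 50.5 TPM. NUP88 had 84.7 and 78.6 TPM, and its partner NUP214, with which it binds the export receptor, had 57.3 and 50.5. NUP88 was 1.52 ± 0.0566 times NUP214. AAAS, the gene of triple A syndrome, had 69.2 and 66.1 TPM. RANBP2, which binds RAN and acts as a SUMO ligase, had 52.5 and 49.1 TPM, and the mRNA export factor RAE1 had 52.2 and 48.6. All 5 were lower by TPM, the commoner direction over detected protein-coding genes with at least 100 summed counts, in replicate 2. By CPM, RANBP2 and RAE1 were higher there, with log2 ratios of 0.049 and 0.020, and the others were lower. RAE1 was 0.485 ± 0.0130 times NUP98, its binding partner.

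The 8 transport factors held 50.1% of the members' summed TPM and 37.7% of their summed counts. Their sum was 2279 and 2280 TPM, against 2275 and 2261 for the 28 nucleoporins. RAN (ENSG00000132341, chr12:131356582-131362223) had 898.5 TPM in each replicate, from 5620 and 5411 counts on a transcript length of 887 bases. KPNB1 (ENSG00000108424, chr17:45726842-45762871), importin beta, had 396 and 355 TPM and the most counts of the list, 9800 and 9179. RAN was 2.40 ± 0.186 times KPNB1 by TPM but below it by counts, because TPM divides the counts by length. CSE1L (ENSG00000124207, chr20:47662783-47713497), the export receptor of importin alpha, had 229 and 254 TPM. XPO1 (ENSG00000082898, chr2:61703167-61765876), the receptor of proteins with a leucine-rich export signal, had 207 and 231. CSE1L was 1.10 ± 0.00462 times XPO1, so the ratio between them differed less between replicates than either level.

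The median of the transport factors was 2.71 times that of the nucleoporins in replicate 1 and 3.10 times in replicate 2 (2.91 ± 0.277). The factors formed an upper and a lower set. RAN, KPNB1, KPNA2, CSE1L and XPO1 were each above every nucleoporin in both replicates, whereas KPNA1, KPNA3 and KPNA4 lay among the nucleoporins. When RAN, KPNB1 and KPNA2 were left out, a choice made after their values were seen, the ratio of medians was 1.03.

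The importin alpha genes differ in the cargoes that they prefer. KPNA2 (ENSG00000182481, chr17:66031752-66043480) had 345 and 350.0 TPM. KPNA4 had 87.3 and 76.4 TPM, KPNA1 73.3 and 63.3, and KPNA3 42.0 and 51.3. KPNA2 was above the others in each replicate and held 63.0% and 64.7% of the summed TPM of KPNA1 to KPNA4 (63.9% ± 1.19). KPNA4 held 15.0% ± 1.28, KPNA1 12.5% ± 1.19 and KPNA3 8.58% ± 1.29. The order of the 4 genes was the same in the replicates, but KPNA4 exceeded KPNA3 by 2.08 times in replicate 1 and 1.49 times in replicate 2. The other importin alpha genes, outside the list, were KPNA6 with 60.6 and 59.5 TPM, KPNA5 with 20.2 and 21.4 TPM, and KPNA7 with no count in either replicate.

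The ratio of importin beta to importin alpha differed with the unit. KPNB1 had 0.724 and 0.657 times the summed TPM of KPNA1 to KPNA4 (0.690 ± 0.0474). By estimated counts, which grow with transcript length, the ratio was 1.12. CSE1L, which recycles importin alpha, had 0.444 ± 0.0360 times the same sum by TPM.

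**Figure D2:**
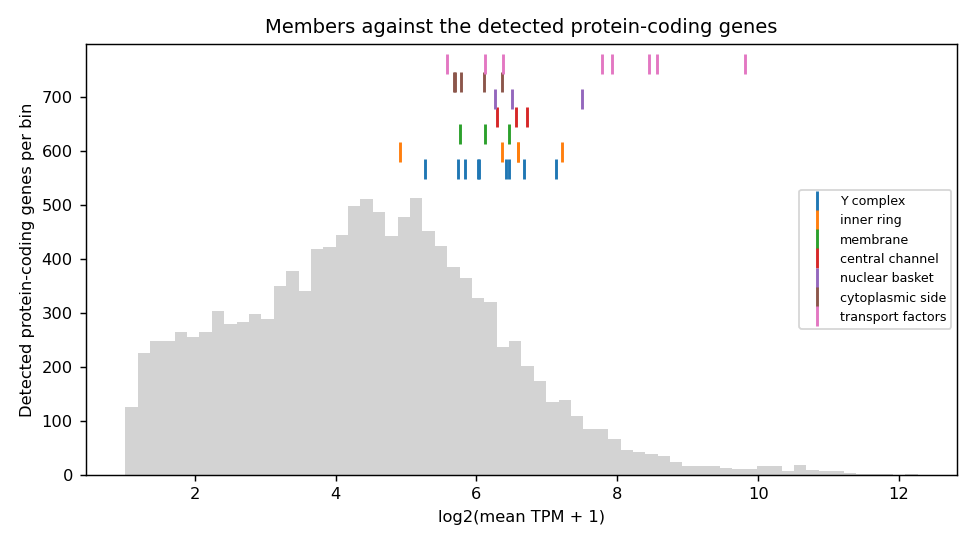
Histogram of log2(mean TPM + 1) for the detected protein-coding genes, with 1 tick per member above it, coloured by place in the pore. The members lie in the upper part of the distribution, and 5 transport factors stand to the right of every nucleoporin, TPR included.

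The level in TPM did not follow transcript length among the 36 genes. Across genes, which share the libraries and are not independent, Spearman's rho was 0.0129 between mean TPM and length, and 0.639 between summed count and length. Over detected protein-coding genes rho of TPM and length was -0.193. The members had a median length of 2969 bases against 2110 for detected protein-coding genes, and ran from 887 (RAN) to 10848 bases (RANBP2). RANBP2 thus had 4035 and 3981 counts at a TPM below most nucleoporins.

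How the levels of FG nucleoporins compared with those of the others depended on how FG content was counted. Phenylalanine codons followed directly by a glycine codon were counted in the coding sequence of each gene's main transcript in the annotation. NUP214 had 44 such pairs, NUP98 40, NUP153 29, POM121 24 and RANBP2 22. The others had at most 9 (NUP54), with 6 in NUP62, and no transport factor had more than 3. The 5 genes with at least 10 pairs had a median mean TPM of 76.2, against 81.0 for the other 23 nucleoporins. Spearman's rho between pairs and mean TPM over the 28 nucleoporins was 0.141, given as a description of genes that share libraries. A count of pairs favours long genes. Per 100 codons RANBP2 had 0.683 pairs, fewer than NUP54 (1.78), NUP62 (1.15) and NUP50 (1.07). The 7 nucleoporins with over 1 pair per 100 codons had a median mean TPM of 87.2, against 68.4 for the other 21, and rho over the 28 was -0.0515. The difference between the medians thus changed sign with the measure, and in each measure rho had the opposite sign. These values show no clear relation of FG content and level.

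Reads shared with other genes touched most members. Estimated counts that were not whole, a sign that reads were split, were found for 23 of 36 members (63.9%) and for 49.4% of detected protein-coding genes. These percentages were not matched for read depth. At least 1 window of 50 bases in 30 members also occurred in a transcript of another gene, on either strand, and the median share was 3.32% of a member's windows. Windows were not counted for genes outside the list, so whether 30 of 36 is unusual was not tested. The 6 members with no such window, NUP205, NDC1, RAE1, AAAS, KPNA3 and CSE1L, all had whole counts. Every member with counts that were not whole had shared windows. Across the 36 genes, the percentage of shared windows and the larger posterior SD of the count, the authors' measure of how uncertain the split is, had a Spearman's rho of 0.812.

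The shared sequence was of several kinds. POM121 shared 61.1% of its windows, from the 2 of its 5 listed transcripts that were found in the annotation, and its counts of 3400 and 3131 had posterior SDs of 57.8 and 50.3. The largest parts were shared with the pseudogene POM121B (24.6%), with NSUN5P1 (16.5%) and with NSUN5P2 (16.0%), which overlaps POM121 on the opposite strand, followed by NSUN5 (7.09%) and POM121C (6.92%). POM121C (ENSG00000135213, an older identifier matched through its transcripts) had 2968 and 2766 counts, or 87.3 and 93.6 TPM. The copies picked by gene symbol together held 48.6% and 49.0% of the counts of the POM121 family. AHCTF1 shared 45.7% of its windows, nearly all with AHCTF1P1, but that pseudogene received only 67.5 and 74.9 counts, 3.95% and 4.36% of the pair.

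RANBP2 shared 27.2% of its windows, and the RGPD genes together held 27.8% and 27.1% of the family's counts. RGPD6 had 1084 and 1020 counts with posterior SDs of 106 and 58.6. RGPD5 had 131 and 57.1 counts with posterior SDs of 98.4 and 51.0, so its level was hardly determined. By contrast RANBP2 itself had 4035 and 3981 counts with an SD of 21.3 in replicate 1. Copies were picked by gene symbol, so pseudogenes without such a symbol were left out. An unnamed processed pseudogene on chromosome 6, for example, shared 7.12% of the windows of NUP50. Of the 43 picked copies of 11 members, 18 had an estimated count of 0 in both replicates. Such a 0 can hide reads that were assigned elsewhere: RGPD4 had a count of 0 with posterior SDs of 3.37 and 3.29. The 9 copies of RAN held 0.139% and 0.166% of its family, and the 3 copies of KPNA2 0.710% and 0.488%.

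NUP62 shared 17.3% of its windows, spread over 645 other genes. These included ATF5 on the opposite strand (6.13%) and IL4I1 on the same strand (4.22%), which both overlap it. SEH1L shared 2.62%, spread over 320 other genes. Some shared windows came from genes that overlap a member on the opposite strand. NUP88 shared 40.0% of its windows, mostly with RABEP1 (37.9%), yet its posterior SD was 2.15 counts in replicate 1. KPNA1 shared 14.9%, mostly with the lncRNA WDR5B-DT, and had a posterior SD of 25.0 on 1390 counts. NUP153 shared 9.82% with NUP153-AS1 and none with any other gene, and its counts, 2795.83 and 2808.7, were not whole. The sources used here do not say if reads were counted by strand. Whether reads of a member and its antisense partner were told apart was not tested.

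**Figure D3:**
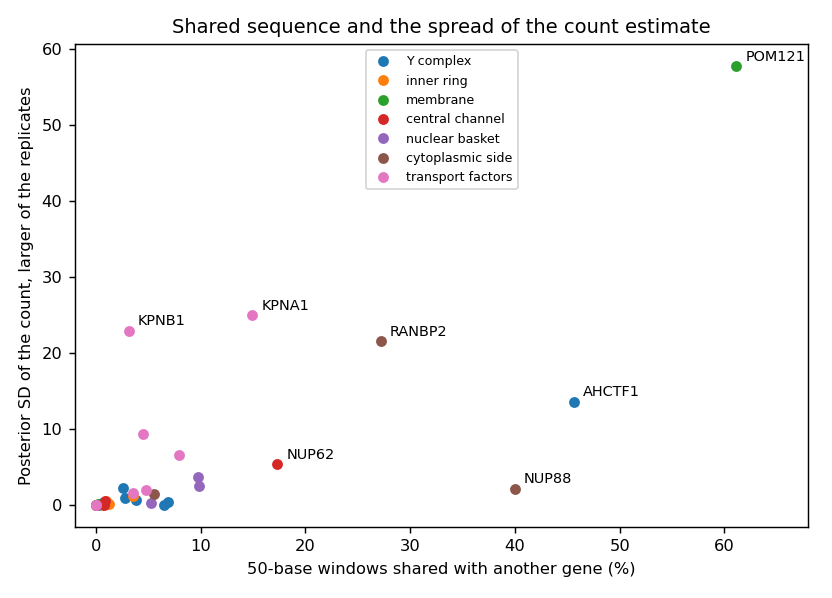
Percentage of a member's 50-base windows that also occur in another gene (horizontal axis) against the larger posterior SD of its count over the replicates (vertical axis), 1 point per member, coloured by place in the pore. POM121 is highest on both axes, with 61.1% and 57.8 counts, while NUP88 has many shared windows and a small SD.

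The replicates agreed closely on the order of the members, with a Spearman's rho of 0.979 for TPM across the 36 genes, which share the libraries. The median absolute difference of log2(TPM + 1) between replicates was 0.0965 over the members and 0.125 over detected protein-coding genes. These sets were not matched for depth: by estimated counts the median member lay at percentile 91.2 of the detected protein-coding genes. The largest difference among members was 0.284, for KPNA3.

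The counts of each gene were compared between the libraries by an exact two-sided binomial test against scaled library sizes. This test compares the 2 libraries, not conditions. It called 2 of the 36 members with an adjusted p under 0.05, where the percentage called over all 17920 genes tested was 3.87. CSE1L had 4933 and 5140 counts, a log2 ratio of scaled counts of 0.14 and a Benjamini-Hochberg adjusted p of 0.000211 in the exact test. XPO1 had 5416 and 5609 counts, a ratio of 0.13 and an exact adjusted p of 0.000307. Both export receptors were thus slightly higher in replicate 2. NDC1, with 1452 and 1541 counts and a ratio of 0.16, did not pass at an exact adjusted p of 0.0510. At an unadjusted p under 0.05 there were 7 members (19.4%), against 13.3% of all genes tested. The test is more sensitive at high counts: of 7809 genes with at least the summed count of the lowest member, 4.96% were called.

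**Figure D4:**
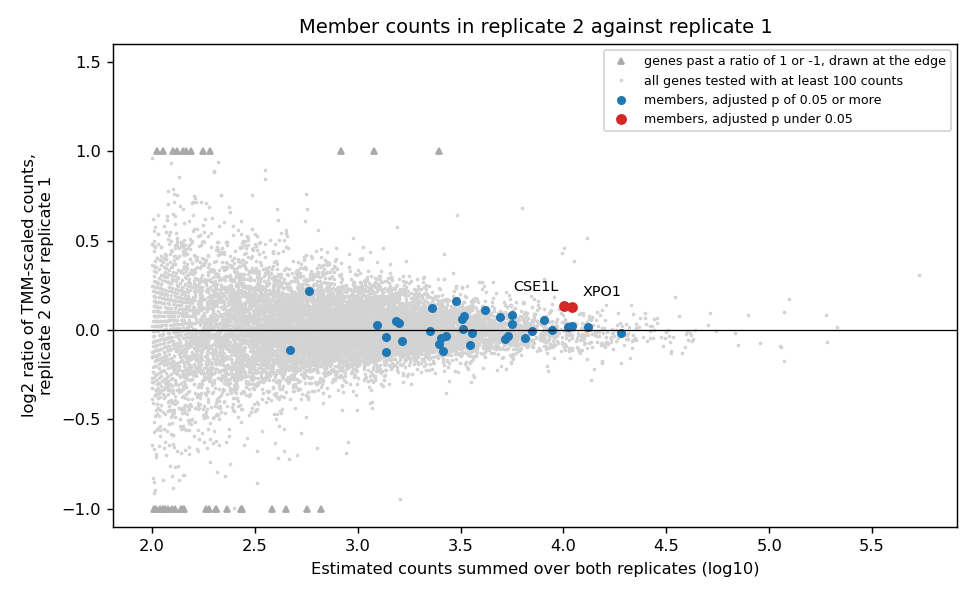
Log2 ratio of scaled counts, replicate 2 over replicate 1, against the log10 of the summed count, for tested genes with at least 100 counts (grey; 35 of 11883 genes lie past a ratio of 1 in either direction and are drawn at the edge) and the 36 members (blue, or red where called). CSE1L and XPO1 lie just above 0 at high counts.

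Several members differed more between replicates by TPM than by counts. TPR had 6697 and 6430 counts, nearly equal after scaling to the library totals (a log2 ratio of 0.0095), yet its TPM ratio was 0.24, since the transcript length used for the scaling was 5479 bases in replicate 1 and 4625 in replicate 2. KPNA3 had 1136 and 1173 counts on lengths of 3677 and 3230 bases, with a log2 ratio of 0.11 by scaled counts (CPM) and 0.29 by TPM. KPNA4 went the other way, with 1667 and 1585 counts on lengths of 2608 and 2937 bases and a TPM ratio of -0.19. The change in the KPNA4 to KPNA3 ratio given above thus lay more in the assigned lengths than in the counts. RAN, with the same length in each library, had the same TPM. For 13 of 36 members (36.1%) the length ratio exceeded the count ratio, against 45.0% of 10980 detected protein-coding genes with at least 100 counts. The ratio by TPM and by counts pointed in opposite directions for 7 members (19.4%), against 24.2% of those genes.

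**Figure D5:**
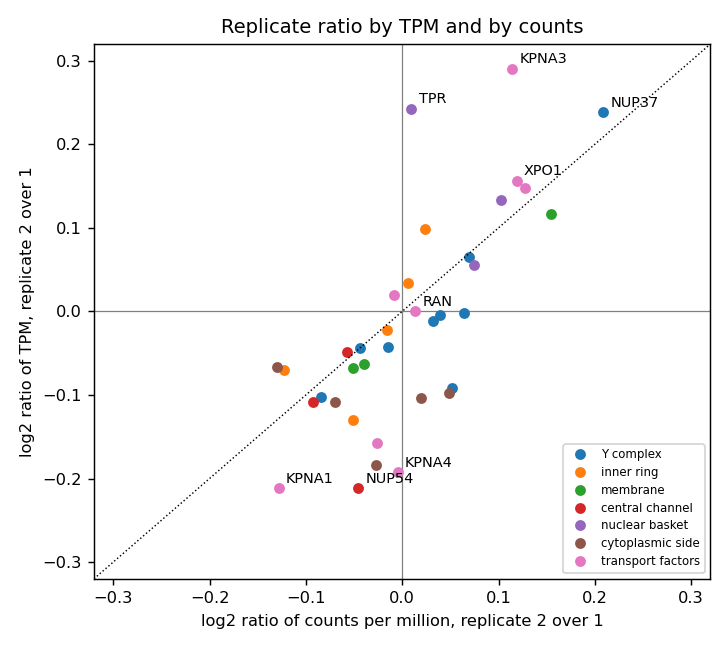
Log2 ratio of replicate 2 over replicate 1 for the 36 members, by CPM (horizontal axis) and by TPM (vertical axis), coloured by place in the pore; the dotted line marks equal ratios. TPR, KPNA3, KPNA4 and NUP54 lie far from the line, with TPM ratios of 0.24, 0.29, -0.19 and -0.21.

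Some TPM values lay outside the interval that was deposited beside them. In each replicate 8 of 36 members (22.2%) had a TPM above the upper bound, against 7.12% and 6.97% of detected protein-coding genes, and 1 member lay below the lower bound. RAN, with 898.5 TPM, had upper bounds of 877 and 867. The member below it was NUP214, with 57.3 and 50.5 TPM against lower bounds of 60.2 and 54.2. The intervals are thus no error bars around these TPM values, and the spread between replicates was used in their place.

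The starts of the genes were searched for short motifs in promoter sequences from RefSeq (GRCh38.p14, 250 bases before to 50 after the start), which matched 32 of the 36 members. CCAAT, the box bound by NF-Y, was found on either strand in 13 of 32 (40.6%), against 37.2% of 10047 promoters of detected protein-coding genes. CCGGAAG, a core of ETS factor sites, was found in 11 (34.4%), against 19.7% of the detected and 4.39% of 5120 protein-coding genes that were not detected. GCGCATGCG, the NRF1 motif, was found in 3 (9.38%), against 3.82% and 0.762%. TATAAA was in none of the 32, against 5.43% of the detected genes. The 11 promoters with CCGGAAG were all of nucleoporins (11 of 26), and none of 6 transport factors held it. CCAAT was in 10 of the 26 and 3 of the 6. These shares were not tested and describe letters, not binding.

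Stretches of 3 promoters show these motifs, each the 100 bases that end at the last base before the start in GRCh38.p14, with the matches in capitals. KPNA2 (chr17:68035635-68035734, plus strand) and XPO1 (chr2:61538357-61538456, minus strand), both transport factors, each hold CCAAT at 2 places. NUP107 (chr12:68686878-68686977, plus strand) holds GCGCATGCG on both strands in overlapping positions and CCGGAAG on the minus strand.
KPNA2: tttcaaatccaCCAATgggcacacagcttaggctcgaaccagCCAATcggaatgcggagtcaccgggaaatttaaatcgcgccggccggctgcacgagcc
XPO1: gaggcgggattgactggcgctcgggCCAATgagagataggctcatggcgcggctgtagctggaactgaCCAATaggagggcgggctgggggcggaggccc
NUP107: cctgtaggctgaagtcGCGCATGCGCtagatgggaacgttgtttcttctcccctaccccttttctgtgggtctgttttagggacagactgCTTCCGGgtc

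Other genes of nuclear transport and the envelope were at similar levels. Of 46 such genes, 44 were detected, with a median mean TPM of 82.8 at percentile 86.4 of detected protein-coding genes. All 6 genes of the Ran cycle were detected. RANBP1, which helps RAN to hydrolyse GTP, had 679 and 663 TPM, the nearest to RAN itself. NUTF2, the import factor of RAN, had 265 and 269 TPM, the nucleotide exchange factor RCC1 191 and 177, and the GTPase activator RANGAP1 135 and 125. The Ran cycle genes that were measured thus lay below RAN by TPM in each replicate.

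Among 19 other karyopherins 18 were detected, from 17.6 TPM for XPO4 to 160 TPM for IPO7 on average. All were below KPNB1, CSE1L and XPO1. Of 5 other nucleoporins 4 were detected, the exception being NUP210L with 8 and 6 counts. All 8 mRNA export genes were detected, from PCID2 with 15.5 and 13.6 TPM to ALYREF, an adaptor of the TREX complex, with 251 and 232. All 8 genes of the lamina and envelope were detected too: TMPO had 232 and 216 TPM and LBR 210 and 206, while LMNA, the A-type lamin, had 45.1 and 39.4. B-type lamins were higher, with 157 and 136 TPM for LMNB1 and 164 and 155 for LMNB2. In the library comparison 4 of these 46 genes were called, NUP58, IPO7, TNPO1 and LBR, all higher in replicate 2, with exact adjusted p-values of 0.0392, 0.0289, 0.0104 and 0.0333. This was 8.89% of the 45 that were tested, against 3.87% of all genes tested and 4.96% of those with at least the summed count of the lowest member. The difference between these shares was not tested.

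A pooled table deposited beside the replicates held, for all 36 members, the sum of the replicates' counts within 1% or 1 count. It therefore adds no further replicate.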

How the data were processed

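HEK293T poly(A) RNA was sequenced in 2 libraries with reads of 50 bases. The submitters' processing notes name Trimmomatic 0.36, STAR 2.6.1c and RSEM 1.3.1, and GRCh37; the study's methods name featureCounts, but the columns are those of RSEM. Deposited estimated counts are reads per gene with multi-mapping reads split among genes. TPM and FPKM values were made by the authors and are scaled by effective length. Also deposited are scores of uncertainty: each count's posterior SD and the interval limits of each TPM. The sources used here do not state whether counting was stranded.

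Symbols and GRCh37 coordinates came from GENCODE 44 mapped to that build: 55501 rows matched by gene ID, 794 by transcript IDs and 1441 not. Genes with a TPM of 1 or more in each replicate were called detected. Levels are TPM, mean ± SD (n = 2). Libraries were compared with an exact two-sided binomial test on rounded counts (scipy 1.17.1) against TMM-scaled totals (edgeR 4.0.16, R 4.3.3), Benjamini-Hochberg adjusted over genes with 10 or more counts in all; log2 count ratios used 0.5 added counts. A count was called whole within 0.005. Counting errors and limits cover counting only. Windows of 50 bases came from GENCODE transcripts, both strands. Protein sequences were not used here. The genes were named by membership of the list; it, the pathway list (other nucleoporins, other karyopherins, Ran cycle, mRNA export, lamina and envelope) and the marker lists were chosen with earlier results of these data known. The values of 1 kidney marker are not reported here. Alternatives covered thresholds, units, scalings, copies and each replicate left out.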

Additional observations from a re-analysis of the deposited data

How the results depend on the processing

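Detection of the 36 members was the same at a TPM of 0.1 or 5, at an FPKM of 1, at 10 counts and in each replicate alone, and 44 or 45 of the 46 other transport genes were detected under the settings tried for them. Of 56 values under alternatives, 34 moved by less than the spread between replicates, or within 1.5 times for counts, and 22 moved by more. For the replicate difference a fixed limit was used instead. Where the main value is the mean of the replicates, leaving either out always moves it by less than their spread, so those settings test nothing. This holds for the share of all TPM, the transport to nucleoporin ratio, the KPNA2 share and the KPNB1 ratio. The share of all TPM (0.455%) was 0.872% by estimated counts, 0.652% over protein-coding genes, 0.472% with copies added and, as an alternative chosen after the data were seen, 0.567% without the 10 highest genes. The median level (6.37) was 5.88 by FPKM and 6.88 rescaled over protein-coding genes, and 6.36 to 6.42 with either replicate left out. The percentile of the median member (86.1) was 88.6 among all detected genes, 91.2 by estimated counts, 91.3 with no filter, and 86.3 to 86.4 with either replicate left out. The replicate difference (0.0965) was 0.0486 by TMM-scaled counts and 0.0841 by FPKM. Of members differing between the libraries (2), CSE1L was the 1 left with whole counts only, also when adjusted over all genes (1, chosen after the data were seen); with a minimum of 100 counts there were 3, NDC1 added, and over all genes 504 of 11885 were called. With no filter 564 of 30700 genes were called and with whole counts only 70 of 8675. The transport to nucleoporin ratio was 1.03 without RAN, KPNB1 and KPNA2. The share of KPNA2 was 51.8% by counts and 55.6% of all 7 importin alpha genes, the KPNB1 ratio 1.12 and 0.601 in the same settings, and the Y complex range 8.53 by counts. Values by estimated counts differ by construction, since counts are not scaled by length, and for the other changes the cause was not tested. No paired analysis was possible because there is 1 group. With 2 replicates, differences between neighbouring genes under about the replicate spread were not resolved.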
